A study of Mus musculus with 24 samples.

Results

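The comparison described here sets activated CD4 T cells of mice labelled as Pdha1 knockouts (KO) against activated CD4 T cells of their wild-type (WT) controls. It rests on 6 of the 24 libraries of the series, 3 per genotype, chosen by their labels and not by any measured value. The KO cells carry the genotype Pdha1fl/fl CD4CreERT2, that is, Pdha1 alleles flanked by loxP sites and a tamoxifen-dependent Cre that the Cd4 promoter drives. The controls are labelled Wt, and the labels say neither whether they carry the Cre nor when tamoxifen was given. Cells of both genotypes were stimulated through CD3 and CD28 for 24 h in medium with 15% serum and 2 mM glutamine. Values are the deposited RPM, which scale each library to a total of 1000000, from total RNA, and libraries are numbered 1 to 3 as the labels number them. The KO libraries held 1023705, 883255 and 978143 recovered counts and the WT libraries 388902, 860862 and 682674, so that a count of 0 allows a level of up to 2.39 RPM in KO library 3 and up to 6.83 RPM in WT library 1 (3 counts, counting error only). The library labelled WT activated 3 had the expression profile of a resting library, and most results are therefore given with it and without it. Some genes and lists are given in only a single fit.

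Pyruvate dehydrogenase (PDH) sits in the mitochondrial matrix and turns pyruvate from glycolysis into acetyl-CoA, which enters the TCA cycle. Its E1 component is a heterotetramer of the products of Pdha1 and Pdhb, E2 is the lipoyl-bearing acetyltransferase Dlat, and E3 is the dehydrogenase Dld, held to the core by Pdhx. Kinases (Pdk genes) phosphorylate the Pdha1 product and switch the complex off, and phosphatases (Pdp genes) switch it on again. On stimulation, T cells raise glycolysis, mitochondrial mass and the synthesis of nucleotides, lipids and proteins, and acetyl-CoA also serves as the donor for histone acetylation. The comparison asks what activated CD4 T cells express without Pdha1.

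Pdha1 encodes the alpha subunit of E1 (ENSMUSG00000031299, at 160122209 to 160138413 on chromosome X of GRCm38), and its reads were counted in all 6 libraries. It stood at 30.4, 27.4 and 20 RPM in KO libraries 1 to 3 and at 84.7, 40.8 and 5.35 RPM in WT libraries 1 to 3. As labelled the groups overlapped, because the library labelled WT activated 3 lay below every KO library. The difference was −17.6 RPM (exact permutation test, two-sided p = 0.7, 3 against 3) and the log2 change −0.07 ± 1.34 (limma, adjusted p = 1.0, where the value after ± is a standard error here and for every log2 change). Without that library all 3 KO values lay below both WT values, by 36.8 RPM on average, with an exact permutation p of 0.1, the smallest that 3 against 2 allows, and a log2 change of −1.19 ± 1.35 (limma, adjusted p = 0.70). At rest, where Pdha1 stood at 7.33, 0 and 25.9 RPM in KO and 6.78, 3.14 and 6.01 RPM in WT, the library labelled KO resting 3 was the highest. Which exons were deleted, and where in the transcript the reads fell, is not given in the sources used here, so these values are no check of the deletion.

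The 6 Pdha1 values had the same order as a measure of how far each library had moved from rest to activation. That distance was measured in libraries of a different cohort: 4800 protein-coding genes that differed by more than 1 on the log2 scale between resting and activated WT cells of the Acly cohort, of which 3361 were higher after activation, gave an axis on which the mean of those resting libraries is 0 and that of the activated ones 1. The KO libraries lay at 0.55, 0.499 and 0.381 and the WT libraries at 0.843, 0.632 and −0.083. The library labelled WT activated 3 thus lay among resting libraries, and the library labelled KO resting 3, at 0.597, lay among activated ones, whereas the other 5 resting libraries of the Pdha1 cohort spanned −0.259 to 0.005. No library was reassigned. In the Acly cohort activated libraries reached 0.913 to 1.046, so all 6 activated Pdha1-cohort libraries lay short of that range.

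**Figure D1:**
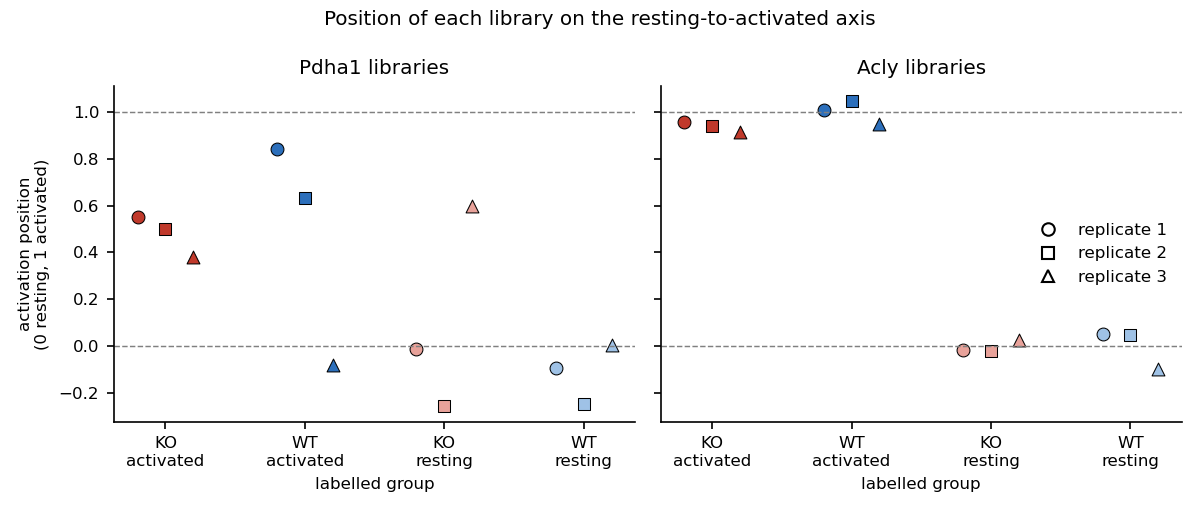
Activation position of each of the 24 libraries (y axis, no unit; dashed lines mark the resting mean, 0, and the activated mean, 1, of Acly-cohort WT libraries) by labelled group (x axis), with a symbol per replicate number. The 3 activated Pdha1 KO libraries lie at 0.381 to 0.55, between WT activated 1 and 2 (0.843 and 0.632) above and WT activated 3 (−0.083) below.

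Other properties of the libraries differed as well. Reads assigned to 1893 receptor genes of smell and pheromone sensing, used here to gauge background in T cells, took 75859, 82848 and 89905 RPM in KO and 26547, 72700 and 106049 RPM in WT libraries (exact permutation p = 0.7, and 0.1 without the library labelled WT activated 3). Protein-coding genes took 57.7% to 62.0% of KO libraries and 78.1%, 61.6% and 52.0% of WT libraries 1 to 3. Erythroid and platelet markers summed to 6844, 4917 and 6244 RPM in KO and 29848, 6297 and 6243 RPM in WT, against 28.2 to 553 RPM in activated Acly-cohort libraries. The haemoglobin gene Hba-a1 stood at 10350 RPM in WT activated 1 and 2174 to 2852 RPM elsewhere, while the platelet genes Pf4 and Gp9 were at or near 0. The erythroid genes had a median log2 change of −0.73 as labelled and −1.05 without the library labelled WT activated 3. Hba-a1 and Hba-a2 are near-identical copies, so their separate values are uncertain. B cell markers summed to 230 to 349 RPM in KO and 210 to 396 RPM in WT, myeloid markers to 51.4 to 71.2 and 27.3 to 103 RPM, and CD8 and NK cell markers to 63.3 to 77.0 and 55.7 to 91.2 RPM. Of 13 B cell markers, 2 were higher and 1 lower in KO without overlap as labelled (3.99% and 1.74% of all genes). The 2 were Pax5 (9.61, 6.84 and 9.58 RPM against 0, 5.80 and 5.35 RPM) and Ms4a1 (17.8, 14.6 and 16.8 RPM against 4.56, 11.6 and 12.9 RPM). In both, WT activated 1 lay below the 6.83 RPM that 3 counts give there. T cell identity genes, the Cd3 chains and receptor constant regions among them, summed to 2272, 2008 and 1455 RPM in KO and 3980, 2817 and 617 RPM in WT. In bulk RNA, fewer cells of a type and less RNA per cell cannot be told apart, and the part of red-cell RNA in the differences that follow was not tested. The labels' protocols name a removal of globin RNA. Differences in how complete that removal was would also enter the erythroid sums and were not tested. A fit with the log2 receptor RPM as a covariate called 0 genes in both sets. Genes at an unadjusted p under 0.05 (limma) then numbered 1371 where they were 856 as labelled, and 873 where they were 3784 without the library labelled WT activated 3, and the median over all genes became 0.09 and −0.02.

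No gene passed the threshold. As labelled, limma called 0 of 30357 genes at an adjusted p under 0.05 (0% called), with a smallest adjusted p of 0.379. At an unadjusted p under 0.05 there were 856 genes (2.82%), 745 higher (2.45%) and 111 lower (0.366%) in KO. edgeR on the recovered counts called 0 and DESeq2 called 4. Without the library labelled WT activated 3, limma called 0 of 29393 genes (smallest adjusted p = 0.054), with 3784 genes at an unadjusted p under 0.05 (12.9%), 3289 higher (11.2%) and 495 lower (1.68%). edgeR then called 0 and DESeq2 1. Leaving out WT activated 2 as well, so that WT activated 1 stood alone, gave 4296 calls, 4130 of them higher in KO, and leaving out WT activated 1 in its place gave 0. Of the list members described, Cycs, Cs, Ldha, Pcna, Cd69, Ifng, Gzmb, Tnf and the red-cell and platelet genes fall outside the naming rule and were chosen after their values were seen. Because limma called nothing, what follows gives values and counts, not changes. The labels do not say that libraries come from separate animals, so p-values measure only spread between libraries. For limma that spread, and each standard error, was pooled over all labelled groups of the Pdha1 cohort, KO resting 3 included. Without KO resting 3, genes at an unadjusted p under 0.05 (limma) numbered 914 as labelled and 5110 without the library labelled WT activated 3. The median log2 change over all genes was 0.26 as labelled and 0.35 without that library, with 20217 of 30357 and 18309 of 29393 genes positive. Signs in the lists below are counted against 0, not against these medians. The sign and size of the median over all genes depended on the scaling: quantile normalization moved it to 0.04 and 0.02, and DESeq2 turned it to −0.13 and −0.04. In the set without that library, leaving out WT activated 1 turned it to −0.06.

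Within the PDH complex, no gene separated the genotypes as labelled. Of the 15 genes of the complex and its regulators, 0 had groups that did not overlap, where 3.99% of all genes had KO higher and 1.74% KO lower in this way. Pdhb, the other E1 subunit (chromosome 14, 8165996 to 8173025), stood at 32.6, 36.9 and 45.8 RPM in KO and 50.2, 38.8 and 19.3 RPM in WT libraries. Here KO library 3 was above WT library 2, so that Pdhb overlapped with and without the library labelled WT activated 3 (log2 change 0.18 ± 0.41 and −0.21 ± 0.39). Dlat, the E2 subunit (chromosome 9, 50634633 to 50659780), stood at 11.8, 11.1 and 9.58 RPM in KO and 36.5, 24.2 and 2.14 RPM in WT. Like Pdha1, Dlat was lower in every KO library than in WT activated 1 and 2 and higher than in the library labelled WT activated 3 (−0.25 ± 1.21, and −1.42 ± 1.14 without it, limma adjusted p = 0.572). Lias, the lipoic acid synthase that makes the cofactor of E2 (chromosome 5, 65391497 to 65410693), stood at 21.5, 24.9 and 17.6 RPM in KO and 54.8, 37.8 and 8.57 RPM in WT. Its order was the same, and it had the smallest p of the group without that library (−1.09 ± 0.41, limma, unadjusted p = 0.016, adjusted p = 0.369).

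Pdha1, Dlat and Lias were the 3 members of 15 whose KO and WT values did not overlap without the library labelled WT activated 3, all with KO lower, where 14.4% of all genes lay that way and 17.1% the other. The list's median log2 change was 0.02 as labelled (0.26 over all genes) and −0.21 without that library (0.35 over all genes). Among the regulators, the kinase Pdk1 stood at 54.4, 48.2 and 88.1 RPM in KO and 45.7, 56.4 and 86.5 RPM in WT, and the phosphatase Pdp2 at 34.1, 22.3 and 39.3 RPM against 27.4, 40.8 and 34.4 RPM. Both overlapped throughout, as did Dld, Pdhx, Pdk3 and Pdk4. Pdk2, Pdp1, Pdpr, Lipt1 and Lipt2 stood at or below 4.79 RPM in all 6 libraries, near the level that 3 counts give, where a difference was not detectable.

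**Figure D2:**
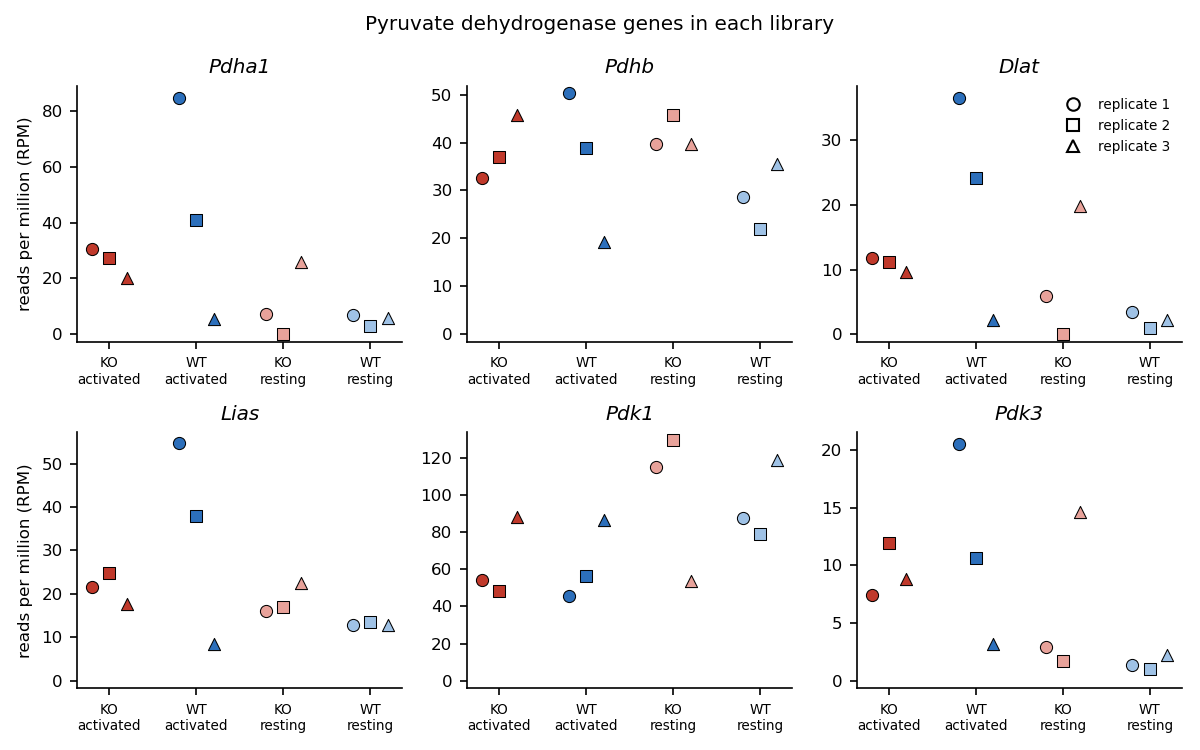
RPM (y axis, from 0) of 6 PDH genes in the 12 libraries of the Pdha1 cohort by labelled group (x axis), with a symbol per replicate number. Pdha1, Dlat and Lias show KO activated libraries below WT activated 1 and 2 and above WT activated 3, with KO resting 3 near the KO activated libraries, while Pdhb and Pdk1 overlap.

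Genes that bring pyruvate to the complex or divert it away differed from each other. The lactate carrier Slc16a1 (chromosome 3, 104638668 to 104658462) stood at 11.1, 11.1 and 4.79 RPM in KO and 34.2, 23.2 and 9.64 RPM in WT (log2 change −1.18 ± 0.61, and −1.68 ± 0.62 without the library labelled WT activated 3, limma, unadjusted p = 0.0136). Ldhb, the lactate dehydrogenase subunit that favours pyruvate, stood at 2.95, 0 and 3.99 RPM in KO and 11.4, 43.7 and 0 RPM in WT. Without the library labelled WT activated 3 both WT values lay above all KO values (−3.53 ± 1.01, limma, adjusted p = 0.369). The pyruvate carrier subunits Mpc1 and Mpc2 had opposite signs: Mpc1 stood at 6.65, 6.84 and 4.79 RPM in KO and 38.8, 13.5 and 4.28 RPM in WT, Mpc2 at 20.7, 17.98 and 24.0 RPM in KO and 2.28, 19.4 and 18.2 RPM in WT. For Mpc2 the value of WT activated 1 is 1 count (2.28 RPM per count there), and the other WT values lay within the KO range. Ldha was lower in all 3 KO libraries (293, 273 and 146 RPM) than in WT activated 1 and 2 (571 and 344 RPM), with 84.3 RPM in the library labelled WT activated 3. The list of 11 had a median of 0.36 as labelled and −0.26 without that library.

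Respiratory chain genes gave the most uniform pattern without the library labelled WT activated 3. Of 34 nuclear genes of complexes I to V and cytochrome c, 33 then had a negative log2 change (median −1.08, against 0.35 over all genes), and 29 had KO values below both WT values, where 14.4% of all genes and 23.9% of the genes with a mean of at least 10 RPM lay that way. As labelled, 18 were negative and 16 positive (median −0.01) and 0 had groups that did not overlap. Cytochrome c, Cycs, stood at 391.8, 420 and 273 RPM in KO and 1569, 696 and 33.3 RPM in WT. The complex IV subunit Cox6c stood at 130, 90.0 and 89.7 RPM in KO and 631, 142 and 22.5 RPM in WT, and the complex I subunit Ndufb10 at 17.8, 15.4 and 14.4 RPM against 59.4, 28.1 and 11.8 RPM. In each of the 3 the KO libraries lay close together between WT activated 2 and the library labelled WT activated 3, and WT activated 1 lay far above. Without the library labelled WT activated 3 the log2 changes were −1.55 ± 1.10, −1.55 ± 0.78 and −1.35 ± 0.49, and none passed (limma, unadjusted p = 0.0138 for Ndufb10). Cox4i1 was the exception, at 72.4, 44.7 and 59.6 RPM in KO and 45.7, 65.2 and 15.0 RPM in WT.

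The 13 protein-coding genes of the mitochondrial genome summed, with its RNA genes, to 14177, 13668 and 10181 RPM in KO and 26179, 16308 and 4742 RPM in WT. Their median log2 change was −0.10 as labelled and −0.92 without the library labelled WT activated 3, with 8 of 13 lower and 1 higher without overlap, against 14.4% and 17.1% of all genes (23.9% lower among genes with a mean of at least 10 RPM). mt-Nd3 stood at 102, 129 and 110 RPM in KO and 1202, 194 and 28.99 RPM in WT (−2.09 ± 0.85, limma, unadjusted p = 0.0319). mt-Nd4l, at 97.5, 105 and 93.8 RPM in KO and 91.6, 84.9 and 74.5 RPM in WT, was the member with every KO value above every WT value. mt-Nd6, which lies on the opposite strand to the others and whose value depends on how strand was counted, overlapped.

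TCA cycle genes lay between. Of 18, 16 were negative without the library labelled WT activated 3 (median −0.89), 13 of them without overlap (14.4% of all genes, 23.9% of those with a mean of at least 10 RPM), and 11 were negative as labelled (median −0.05). The isocitrate dehydrogenase subunit Idh3b stood at 89.9, 58.6 and 40.9 RPM in KO and 294, 90.8 and 20.4 RPM in WT (−1.44 ± 0.53 without that library, limma, unadjusted p = 0.0134). Suclg1, of succinyl-CoA ligase, stood at 60.4, 73.3 and 51.4 RPM against 196, 97.7 and 20.4 RPM (−1.17 ± 0.49). Citrate synthase, Cs, which takes up the acetyl-CoA that PDH makes, stood at 83.0, 97.8 and 66.9 RPM in KO and 138, 116 and 37.6 RPM in WT (−0.63 ± 0.39). Of 11 glutamine and aspartate genes, 10 were negative without that library (median −0.87). The transaminase Gpt2 was the exception, at 21.5, 26.6 and 29.6 RPM in KO and 18.2, 19.4 and 11.8 RPM in WT, higher in each KO than in each WT library.

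**Figure D3:**
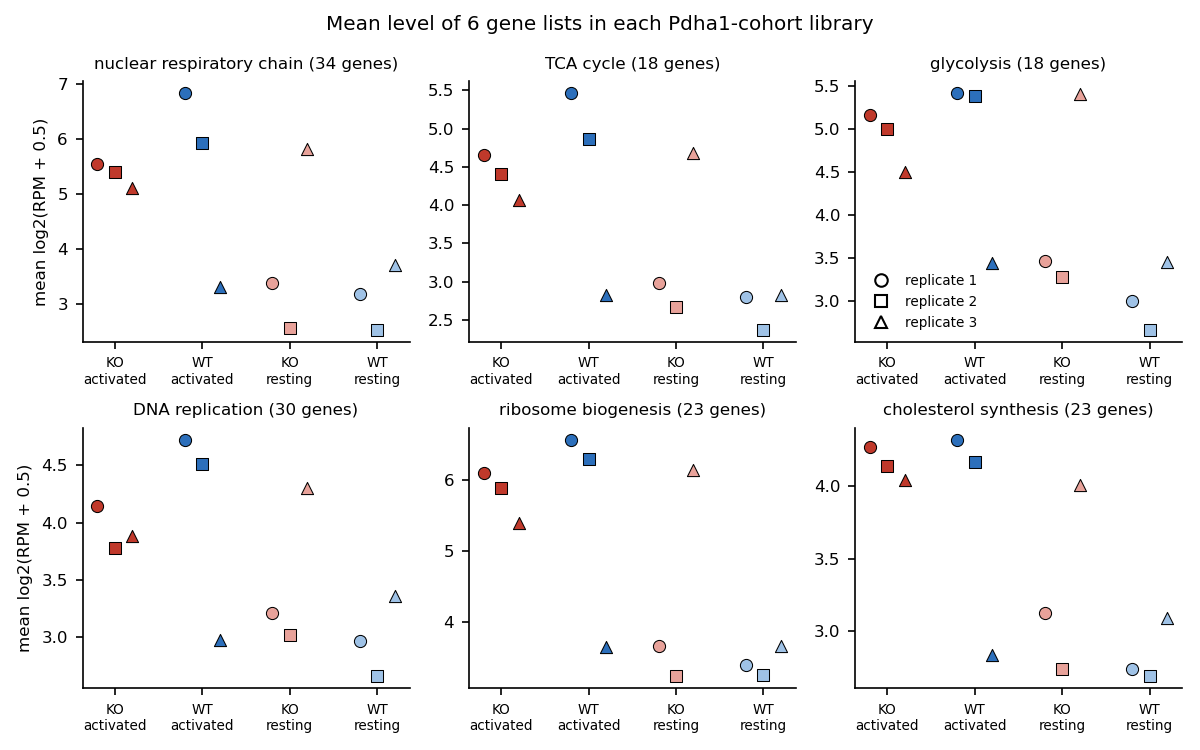
Mean log2(RPM + 0.5) over the genes of 6 lists (y axis; the range differs between panels and does not start at 0) in the 12 Pdha1-cohort libraries by labelled group (x axis). In the respiratory chain panel KO activated libraries lie at 5.10 to 5.55, WT activated 1 and 2 at 6.83 and 5.93 and WT activated 3 at 3.30; in the cholesterol panel KO lies at 4.04 to 4.27 and WT activated 1 and 2 at 4.32 and 4.17.

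Glycolysis and the genes that use acetyl-CoA were less uniform. Of 18 glycolysis genes, 13 were negative without the library labelled WT activated 3 (median −0.75) and 15 positive as labelled (median 0.22). Pgam1 stood at 213, 257 and 149 RPM in KO and 646, 402 and 19.3 RPM in WT, and Gapdh at 575, 537 and 353 RPM against 729, 846 and 81.0 RPM. Hk2, at 17.0, 21.4 and 16.0 RPM in KO and 9.12, 21.3 and 13.9 RPM in WT, overlapped in both sets. The 23 cholesterol synthesis genes had a median of 0.31 as labelled and −0.21 without that library, which scaling to protein-coding RPM moved to 0.00, and 11 of 23 were positive. Hmgcs1, a synthase of the pathway, stood at 53.6, 50.7 and 49.0 RPM in KO and 48.0, 50.5 and 18.2 RPM in WT. Fatty acid synthesis genes had medians of 0.14 and −0.30, and fatty acid oxidation genes of 0.29 and −0.15, the latter 0.07 when scaled to protein-coding RPM.

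Acly, which makes acetyl-CoA outside the mitochondria, stood at 31.2, 24.9 and 19.2 RPM in KO and 68.6, 32.0 and 4.28 RPM in WT, and Acss1, a mitochondrial acetate ligase, at 3.69, 5.13 and 8.78 RPM against 0, 3.86 and 7.497 RPM. The list of acetyl-CoA supply and use had medians of 0.19 and 0.07, and quantile normalization turned the second to −0.25. Of 20 histone acetylation genes, 12 were positive as labelled (median 0.12, against 0.26 over all genes). Without the library labelled WT activated 3, 7 were positive (median −0.37, against 0.35 over all genes). The acetyltransferase Kat6b stood at 26.7, 25.7 and 35.3 RPM in KO and 2.28, 25.2 and 43.0 RPM in WT, where WT activated 1 alone was low (1.80 ± 0.66, limma, adjusted p = 0.369). The deacetylase Hdac2 stood at 59.6, 82.1 and 57.9 RPM against 249, 102 and 5.35 RPM.

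Genes of growth and division were described in the same way. Of 30 DNA replication genes, 25 were negative without the library labelled WT activated 3 (median −0.89) and 20 as labelled (median −0.19). The helicase subunit Mcm2 stood at 23.0, 26.6 and 19.2 RPM in KO and 73.2, 37.8 and 13.9 RPM in WT (−1.19 ± 0.45 without that library, limma, unadjusted p = 0.0156), and the replication clamp Pcna at 111, 101 and 79.1 RPM against 372, 206 and 13.9 RPM. The licensing factor Cdc6, at 2.21, 0 and 3.19 RPM in KO and 4.56, 5.80 and 5.35 RPM in WT, and Mcm10, at 10.4, 7.69 and 9.58 RPM against 0, 5.80 and 5.35 RPM, did not overlap as labelled and lay near the level of 3 counts. Ribosome biogenesis genes were positive in 19 of 23 cases as labelled (median 0.32) and negative in 20 without that library (median −0.70). Its member Wdr12 stood at 226, 158 and 200 RPM in KO and 119, 139 and 119 RPM in WT, higher in each KO library (0.61 ± 0.39). Nucleotide synthesis (median 0.12, and −0.77 without that library), serine and one-carbon genes (−0.02 and −0.66), amino acid transport (0.15 and −0.44), unfolded protein response (0.00 and −0.66), ATF4 stress response (0.30 and −0.44) and redox genes (0.01 and −0.57) had the same order of medians. G2 and mitosis genes had medians of 0.01 and −0.08, the second 0.12 when scaled to protein-coding RPM.

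Of 17 surface markers of T cell activation, 9 lay lower in every KO library than in WT activated 1 and 2, against 14.4% of all genes and 23.9% of those with a mean of at least 10 RPM. The early marker Cd69 stood at 104, 97.8 and 79.9 RPM in KO and 462, 159 and 17.2 RPM in WT, and Il2ra, the IL-2 receptor alpha chain, at 202, 182 and 133 RPM against 353, 248 and 52.8 RPM. The transferrin receptor Tfrc stood at 60.4, 72.5 and 35.3 RPM in KO and 235, 88.8 and 5.35 RPM in WT. All 3 overlapped as labelled and had KO below both WT values without the library labelled WT activated 3 (log2 changes −1.53 ± 1.07, −0.80 ± 0.49 and −1.42 ± 0.93). In contrast, Icos, a costimulatory receptor, stood at 75.5, 69.0 and 61.2 RPM in KO and 70.9, 79.0 and 7.497 RPM in WT, overlapping in both sets. In all, 15 of the 17 were negative without that library (median −0.76) and 6 as labelled (median 0.12). Lag3, an inhibitory receptor, was the 1 member of 17 with every KO value below every WT value as labelled (1.74% of all genes), at 6.65, 7.69 and 7.98 RPM against 13.7, 11.6 and 15.0 RPM. At rest Lag3 was also lower in each KO than in each WT library, at 9.53, 6.75 and 5.16 RPM against 12.9, 10.5 and 14.3 RPM.

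Cytokines showed the widest gap between the 2 ways of counting. Of 19 tested, 13 were positive as labelled (median 0.62), where 20217 of all 30357 genes were. Without the library labelled WT activated 3, 16 were negative (median −0.77), and that library held no count of Ifng, Tnf, Il4, Il13 or Gzmb. Il2 stood at 6.65, 8.55 and 7.18 RPM in KO and 50.2, 16.5 and 2.14 RPM in WT. Ifng stood at 99.0, 78.6 and 65.2 RPM in KO and 161, 109 and 0 RPM in WT, and the chemokine Ccl4 at 337, 353 and 265 RPM against 395, 446 and 1.07 RPM. Without that library their log2 changes were −1.89 ± 1.23, −0.72 ± 2.20 and −0.41 ± 2.03. Activation transcription factors had medians of 0.33 and −0.56, with Hif1a at 76.2, 70.7 and 47.4 RPM in KO and 149, 112 and 22.5 RPM in WT. T cell identity genes had medians of 0.15 and −0.66, and Cd3g stood at 34.1, 45.6 and 32.9 RPM against 103, 80.0 and 15.0 RPM. Helper and regulatory lineage factors were the list with the highest median without that library (0.37, and 0.27 as labelled), close to all genes (0.35 and 0.26). B cell markers (0.362) and myeloid markers (0.345) lay near them without that library. Among the lineage factors Eomes, a T-box factor, stood at 25.9, 26.6 and 27.2 RPM in KO and 11.4, 17.4 and 15.0 RPM in WT (0.86 ± 0.43, limma, adjusted p = 1.0). Prdm1 stood at 6.65, 4.27 and 5.59 RPM against 0, 1.93 and 5.35 RPM. Interferon-induced genes had medians of 0.24 and −0.03, the second 0.07 under quantile normalization and 0.18 when scaled to protein-coding RPM.

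Over all 37 lists, 26 medians were positive and 11 negative as labelled, and 4 were positive and 33 negative without the library labelled WT activated 3. These signs are against 0, whereas the median over all genes was 0.26 as labelled and 0.35 without that library. A further fit, chosen after these values were seen, held the activation position of each library as a covariate, and called 2 genes as labelled (0.00659% of all) and 2 without that library (0.0068%). Without that library the respiratory chain median then moved from −1.08 to −0.02, the TCA cycle from −0.89 to −0.19, glycolysis from −0.75 to 0.18 and DNA replication from −0.89 to −0.40. Medians within 0.3 of 0 numbered 10 of 37 before and 29 of 37 after, and Pdha1 itself moved from −1.19 ± 1.35 to 0.29 ± 0.60. The position is computed from the same libraries, so a difference between genotypes in how far cells were activated would be taken out along with it. List genes were not kept out of the axis. Without the library labelled WT activated 3, the covariate's slope came from spread within the labelled groups, resting libraries included. That spread was widest in resting KO (−0.013, −0.259 and 0.597), where the last value is KO resting 3. How far the moved medians depend on KO resting 3 was not tested. In the design, genotype and the extent of activation cannot be told apart among the 5 libraries.

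**Figure D4:**
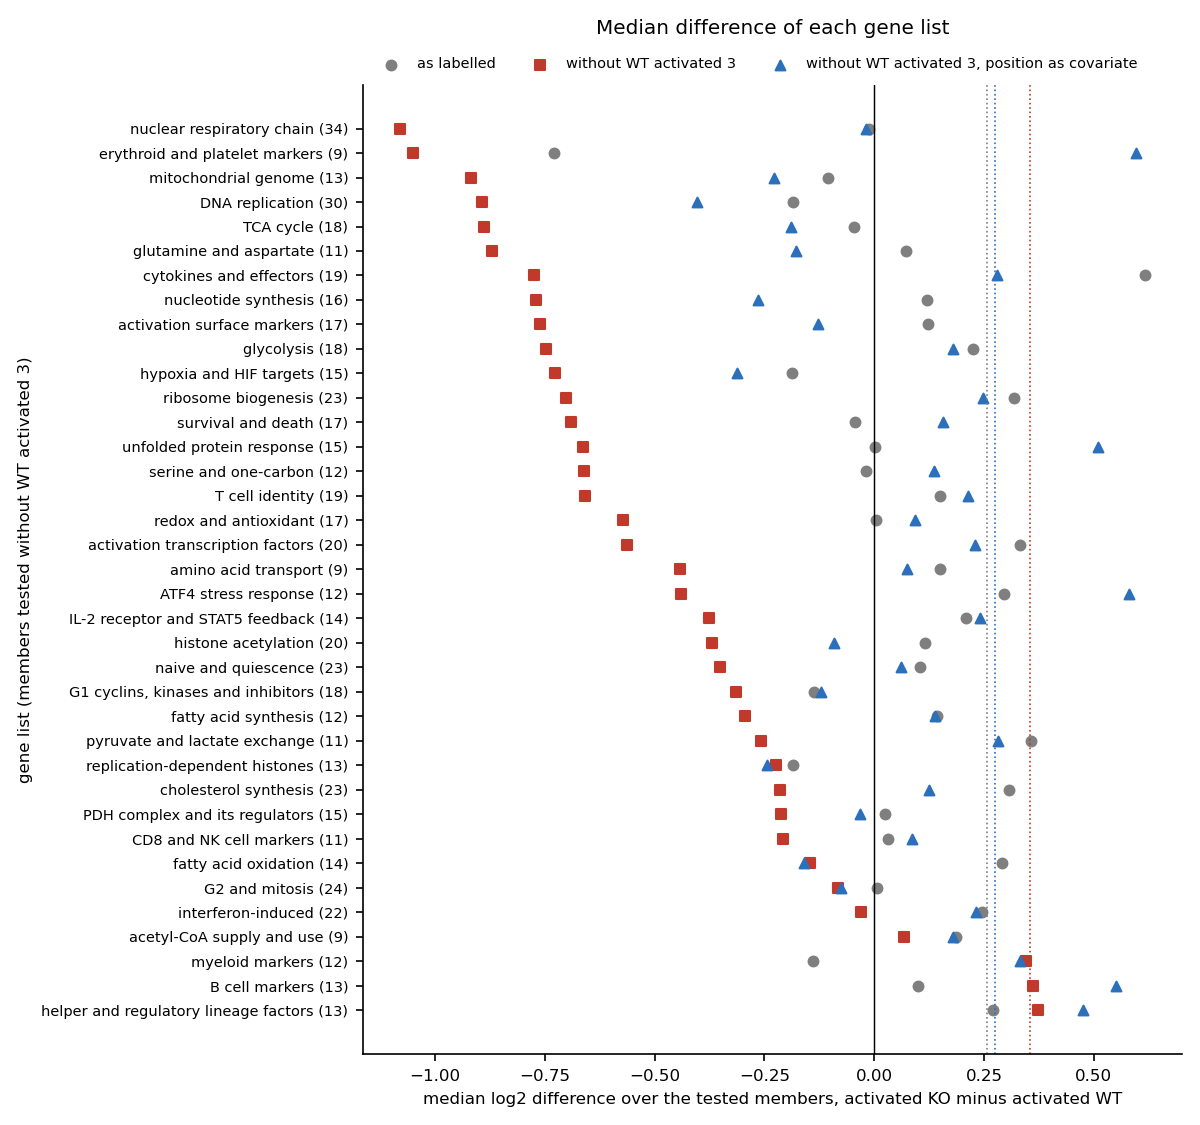
Median log2 difference, KO minus WT, of the tested members of each of 37 gene lists (x axis) as labelled, without WT activated 3, and without it with activation position as a covariate (colours and symbols); dotted lines mark the median over all genes in each fit. Red squares lie left of 0 for 33 lists, and blue triangles lie within 0.3 of 0 for 29.

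Some single genes did not have the order of the activation position. Fam129b (ENSMUSG00000026796, chromosome 2, 32876114 to 32925254), a member of the Niban family, stood at 306, 361 and 355 RPM in KO and 31.9, 61.3 and 62.5 RPM in WT. All 3 KO values lay well above all 3 WT values, and the library labelled WT activated 3 fell in with the other WT libraries. The log2 change was 2.76 ± 0.51 as labelled (limma, unadjusted p = 4.1e-05, adjusted p = 0.622) and 2.93 ± 0.55 without that library (adjusted p = 0.363), and DESeq2 called it as labelled (2.58, adjusted p = 0.0407). At rest the groups overlapped, with 46.5, 50.8 and 126 RPM in KO and 237, 79.1 and 283 RPM in WT. Over the 18 libraries outside this comparison it ranged from 18.6 to 584 RPM, which spans both the KO and the WT values here.

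A few other genes shared that pattern. Kcnq1, a voltage-gated potassium channel (ENSMUSG00000009545, chromosome 7, 143106362 to 143427042), stood at 52.9, 62.9 and 58.7 RPM in KO and 13.7, 4.83 and 1.07 RPM in WT (3.57 ± 0.98, limma, adjusted p = 1.0), and at 2.93, 1.69 and 12.9 RPM in resting KO and 34.8, 4.18 and 49.2 RPM in resting WT. With the position as a covariate it was called as labelled (3.53, limma, adjusted p = 0.00568). In that fit without the library labelled WT activated 3 it was not called (3.77, limma, adjusted p = 0.118). Gm10863 and 9330159M07Rik, which are predicted models outside the naming rule and were chosen after their values were seen, stood at 45.4, 83.0 and 68.5 RPM against 4.56, 3.86 and 11.8 RPM, and at 82.3, 97.0 and 118 RPM against 22.8, 33.0 and 41.9 RPM. Over the 18 other libraries Kcnq1 ranged from 1.69 to 121 RPM, Gm10863 from 2.82 to 174 RPM and 9330159M07Rik from 9.71 to 120 RPM. Their correlations with Fam129b over those libraries were 0.92, 0.85 and 0.85. The limma fit with the position as a covariate called Gm10863 as labelled (adjusted p = 0.00469). Without the library labelled WT activated 3 it called Gm10863 and Fam129b (adjusted p = 0.00762 for each), with KO resting 3 still in the fit. AC166164.1, also chosen after its values were seen, did not share the pattern and overlapped as labelled, at 2.95, 0.854 and 1.59 RPM in KO and 289, 40.8 and 2.14 RPM in WT. DESeq2 called it as labelled (−6.41, adjusted p = 0.0407) and without the library labelled WT activated 3 (−6.97, adjusted p = 9.0e-05). Its correlation with Fam129b over the 18 other libraries was −0.73. As labelled, DESeq2 also called Gm10863 and 9330159M07Rik (adjusted p = 0.0343 for each).

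**Figure D5:**
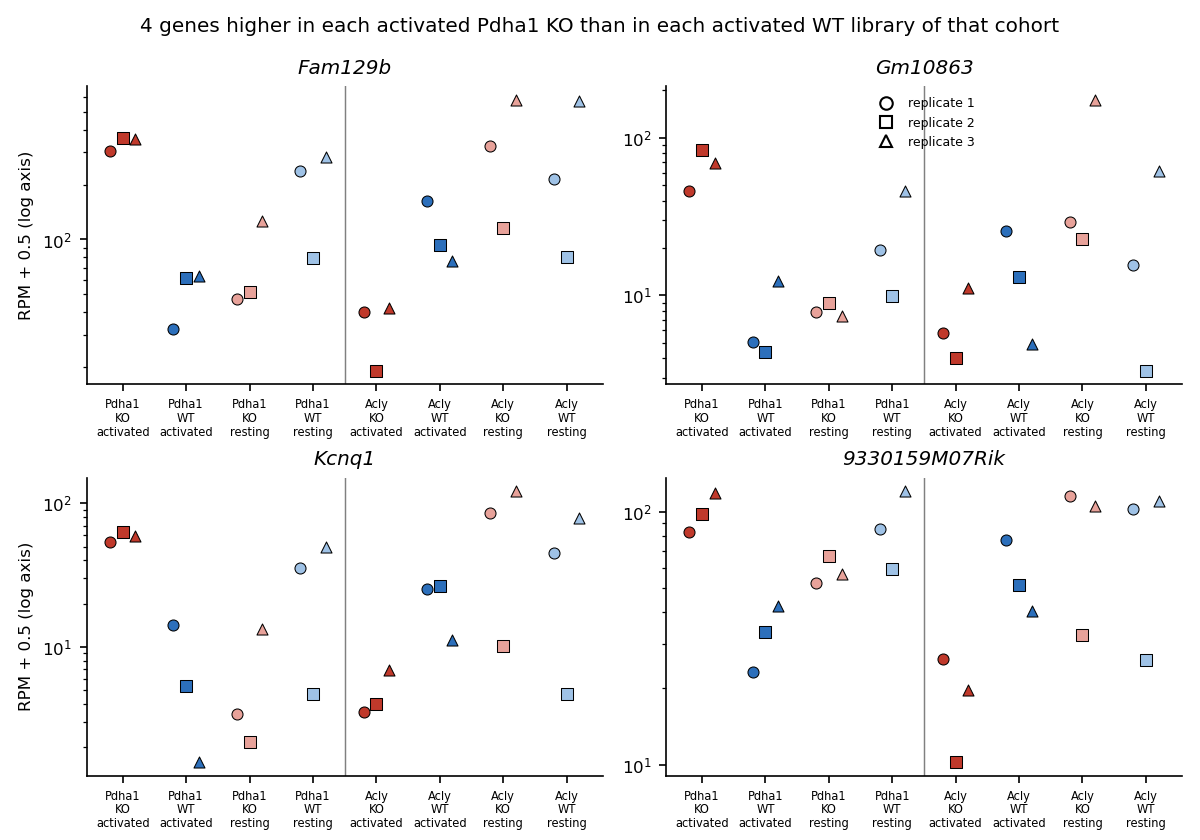
RPM + 0.5 (y axis, log scale) of 4 genes in the 24 libraries by cohort and labelled group (x axis), with a symbol per replicate number. Activated Pdha1 KO libraries lie above all activated Pdha1-cohort WT libraries in each panel, and resting and Acly-cohort libraries spread over about the same range (18.6 to 584 RPM for Fam129b).

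Other genes without overlap as labelled were of many kinds, and their log2 changes are given as labelled. Those named next as higher in KO were not all separate from Fam129b. Over the 18 libraries outside this comparison, correlations with Fam129b were 0.88 for Usp27x, 0.79 for Pgpep1 and 0.77 for Mybl1. They were 0.52 for Manba and 0.27 for Gsdma. Why these genes vary together was not tested. Higher in KO stood Usp27x, a deubiquitinase gene (70.2, 115 and 106 RPM against 34.2, 42.7 and 54.9 RPM, log2 change 1.13 ± 0.38), Mybl1, a transcription factor of the Myb family (20.7, 22.3 and 23.2 RPM against 11.4, 3.86 and 8.57 RPM, 1.54 ± 0.51), Manba, a lysosomal mannosidase (1.56 ± 0.49), Pgpep1, a peptidase (2.29 ± 0.56), and Gsdma, a gasdermin (1.76 ± 0.62). Lower in KO stood Sri, which encodes the calcium-binding protein sorcin, at 52.1, 43.8 and 45.8 RPM against 98.5, 74.1 and 158 RPM (−1.15 ± 0.44, limma, unadjusted p = 0.0188). Lyrm4, which encodes a factor of mitochondrial iron-sulphur cluster assembly, stood at 7.39, 7.69 and 7.18 RPM in KO and 27.4, 26.2 and 9.64 RPM in WT (−1.31 ± 0.58). Rab18, a small GTPase, stood at 18.5, 17.1 and 16.8 RPM against 34.2, 28.1 and 31.1 RPM (−0.81 ± 0.38), and the chromatin protein gene Hmgb2 at 9.61, 5.13 and 5.59 RPM against 16.0, 18.4 and 11.8 RPM (−1.15 ± 0.50). The limma adjusted p was 1.0 for each of these 9 genes.

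The quiescence genes Klf2 and Lef1, transcription factors of resting T cells, also stood lower in each KO than in each WT library. Klf2 stood at 8.87, 10.3 and 13.6 RPM in KO and 27.4, 14.5 and 23.6 RPM in WT (−0.94 ± 0.48, limma, unadjusted p = 0.0632), and Lef1 at 67.2, 61.2 and 64.4 RPM against 126, 79.0 and 84.3 RPM (−0.55 ± 0.36). Of 23 naive and quiescence genes, 3 lay lower in this way as labelled, Txnip being the third, against 1.74% of all genes, and the list's median was 0.11. Without the library labelled WT activated 3, 19 of the 23 were negative (median −0.35). Then 10 lay lower and 2 higher without overlap, against 14.4% and 17.1% of all genes (23.9% lower among genes with a mean of at least 10 RPM). The cell cycle inhibitor Cdkn1a stood higher in each KO than in each WT library, at 231, 154 and 142 RPM in KO and 103, 131 and 46.3 RPM in WT. Its log2 change was 1.00 ± 0.51 as labelled (limma, unadjusted p = 0.0646) and 0.56 ± 0.50 without the library labelled WT activated 3. At rest Cdkn1a was also higher in each KO than in each WT library, at 53.2, 47.4 and 158 RPM against 32.7, 20.95 and 46.1 RPM.

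Without the library labelled WT activated 3, the genes named as higher in KO were of different kinds. In Fam129b, Pgpep1, Gabre and Mirg that library lay below every KO library, whereas in others it lay among or above them. The fractalkine receptor Cx3cr1 stood at 30.4, 18.8 and 36.1 RPM in KO and 2.28, 11.6 and 45.2 RPM in WT (2.27 ± 0.53, limma, adjusted p = 0.369), and at 25 to 40.6 RPM in the 6 resting libraries. In Tarm1, a receptor of myeloid cells, Nwd1, Slc30a10 and Trim5 that library also lay among or above the KO libraries. WT activated 1, the library with the fewest counts, was the lowest of the 5 in each of these 5 genes. Among the genes lower in KO were Sap18, of a histone deacetylase complex, at 92.2, 98.7 and 66.9 RPM against 322, 164 and 33.3 RPM (−1.43 ± 0.47), and Rbl1, a pocket protein of the retinoblastoma family, at 24.5, 15.4 and 23.2 RPM against 73.2, 44.7 and 17.2 RPM (−1.45 ± 0.49), both with a limma adjusted p of 0.369.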

How the data were processed

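Total RNA of CD4 T cells was sequenced single-end after removal of ribosomal and globin RNA, per the labels' protocols. The authors deposited a combined table of RPM per gene, in which each library sums to 1000000, on GRCm38/mm10 per the submitters' processing notes. For the aligner and counter, the sources used here give no name. The deposited RPM values grew with the count as after a correction for collisions among 4096 molecular identifiers. Undoing that correction, which no label describes, gave counts of at most 4095, 100% of them whole within 0.01, so count tests see the highest genes only up to that limit. Identifiers were named with GENCODE M21 (46206 of 46981).

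Values were tested as log2(deposited RPM + 0.5) with limma 3.58.1 in R 4.3.3, for genes that reached 1 RPM in 3 or more libraries. The 12 Pdha1-cohort libraries entered 1 fit as labelled, and 11 the fit without the library labelled WT activated 3. P-values were adjusted by Benjamini-Hochberg, with a threshold of 0.05. edgeR 4.0.16 and DESeq2 1.42.0 ran on the recovered counts as alternatives, and the fits were tested on simulated data. Over 11460 genes the deviations of same-numbered libraries correlated at 0.466, 0.191 and 0.615. Different numbers gave −0.554 to 0.194, where KO 2 with WT 1 gave 0.194. Activation position fell from library 1 to 3 in both genotypes (0.55, 0.499 and 0.381 in KO, 0.843, 0.632 and −0.083 in WT). In these correlations, pairing by number and activation position therefore cannot be told apart. Same-numbered libraries were treated as pairs in an alternative fit. None of the pairs of libraries within a Pdha1-cohort group agreed within sampling noise (lowest chi-square per degree of freedom 1.92), and other pairs were not compared. Named genes were Pdha1, the PDH list, up to 4 members with the smallest p of each of 37 lists (626 symbols, all found), and in each fit the 12 higher and 12 lower genes with the smallest p among those without overlap and with a mean of at least 10 RPM in the higher group, leaving out predicted models, pseudogenes and receptor genes. Alternatives changed the pseudocount, filter, scaling, libraries, covariates and tool. The comparison, its lists and its tests were chosen with earlier results of these data known.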

Additional observations from a re-analysis of the deposited data

Results flagged for a closer look

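Among the genes picked by the naming rule, 3 had KO and WT libraries that did not overlap either at rest or after activation, with opposite directions. How many of all genes met this condition is not given, so the count of 3 is no result about these genes. The resting KO group also holds KO resting 3, which lay among activated libraries. Tada2b, an adaptor of the SAGA complex, stood at 2.95, 7.69 and 3.19 RPM in activated KO and 18.2, 14.5 and 8.57 RPM in activated WT libraries, and at 5.86, 5.06 and 7.74 RPM in resting KO and 1.36, 1.05 and 1.501 RPM in resting WT. The difference between the 2 genotype effects was −3.43 on the log2 scale (limma interaction, adjusted p = 0.999). For Hyou1, a chaperone of the endoplasmic reticulum, it was −0.627 (limma, adjusted p = 0.999), with 62.6, 56.8 and 60.4 RPM in activated KO and 64.0, 106 and 72.3 RPM in activated WT. For mt-Nd4l it was 1.38 (limma, adjusted p = 0.999), with 31.6, 38.9 and 69.4 RPM in resting KO and 118, 99.4 and 79.0 RPM in resting WT. limma called 0 of 30357 genes for this interaction (smallest adjusted p = 0.317, 701 genes at an unadjusted p under 0.05). Gm10863, a predicted model outside the naming rule, met the same condition, with a difference of 4.68 (limma interaction, adjusted p = 0.317). It was higher in activated KO. Among resting libraries its KO values (7.33, 8.44 and 6.88 RPM) all lay below its WT values (19.03, 9.41 and 45.35 RPM).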

How the results depend on the processing

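As labelled, the 0 calls became 2 with no filter on low values, 4 with DESeq2 and 2 with the activation position as a covariate. Without the library labelled WT activated 3, the 0 calls became 2 with a pseudocount of 1, 5 with no filter, 1 with quantile normalization, 2 when scaled to protein-coding RPM, 1 with only the activated libraries, 2 without KO resting 3, 1 with DESeq2 and 2 with the position covariate. Leaving out each replicate in turn gave 0 to 0 calls as labelled and 0 to 4296 without that library, and the difference in receptor RPM ranged from −6504 to 33247. With the replicate number as a block for the pairing, limma called 0 in both sets. Pdha1 turned sign in 6 of 21 alternatives as labelled (−1.19 to 1.00) and in 2 of 20 without that library (−1.71 to 0.52). For named genes, 5269 of 5592 values as labelled and 4743 of 5265 without that library stayed uncalled and within 1 standard error of the main value. Another 320 and 464 stayed uncalled but moved farther, and 0 were called in the opposite direction. The sign turned in 339 and 245 values. A fit with library weights did not converge and was not run. The cause of these shifts was not tested. The position covariate was chosen after seeing the data. Depth limits genes near 3 counts, which is 2.21 to 6.83 RPM in these libraries.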

Other observations

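A few activation genes were low in WT activated 1 although that library lay farthest along the activation axis. Atf5, a stress-response transcription factor, stood at 28.9, 29.2 and 27.2 RPM in KO and 0, 28.1 and 0 RPM in WT libraries 1 to 3. Calr, the chaperone calreticulin, stood at 109, 84.7 and 72.6 RPM against 9.12, 142 and 11.8 RPM. Slc25a1, the mitochondrial citrate carrier, stood at 33.4, 27.4 and 18.4 RPM against 0, 33.9 and 3.21 RPM. Socs1, a feedback inhibitor of cytokine signalling, stood at 300, 291 and 206 RPM against 50.2, 451 and 11.8 RPM. For these genes WT activated 1 lay with the library labelled WT activated 3 and below all 3 KO libraries, and WT activated 2 was above or among them. They were chosen after their values were seen.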
